A study of Mus musculus with 17 samples.

Results

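The chromatin regions described here lay between genes, away from any transcription start, and carried an ATAC-seq peak summit in the kidney of every one of 17 mice. ATAC-seq marks chromatin that the Tn5 transposase can enter, and a summit is the point of highest signal within a called peak. The 29702 strongest summits of each mouse were extended by 250 bp on both sides and merged across mice. Of the 116447 merged regions, 52371 were found in at least 2 mice and 7866 in all 17. A region was kept when its midpoint lay more than 1 kb from every annotated transcription start and outside every annotated gene body of the mm10 GENCODE annotation. This left 780 constitutive intergenic regions, beside 6197 promoter regions, 786 intronic regions and 103 exonic regions that were also found in all 17 mice.

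All mice were male, 8 weeks old at the start and treated for 6 weeks. The Ctrl group held 5 wild-type C57BL/6 mice, which received saline. The Case group held 6 db/db mice on the BKS background, which lack a working leptin receptor and become obese and diabetic, and these also received saline. In the Dapa group, 6 db/db mice received oral dapagliflozin, which blocks glucose reabsorption through SGLT2 in the proximal tubule, as a daily gavage of 1 mg/kg. Each library came from 20000 kidney cells. The db/db genotype, the strain background and diabetes differ together between Ctrl and the other groups, so their parts cannot be told apart, whereas Case and Dapa share genotype and strain. In a whole-kidney sample a change in the number of cells of a type and a change of accessibility per cell cannot be told apart either.

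Distal open chromatin is usually more cell type specific than promoter chromatin, and most of it consists of enhancers, where transcription factors bind and act on genes that may lie far away. Distal sites that stay open in every sample include insulator sites held by CTCF, enhancers of broadly expressed genes, small RNA genes transcribed by RNA polymerase III, and unannotated promoters. A second kind of constant signal comes from sequences present in the genome in many copies, such as telomeric repeats, satellites and nuclear copies of mitochondrial DNA, where reads from several places can be placed at a single mapped site.

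The members differed in what their DNA contained, and a few sequences show the kinds. Each sequence below is the 200 bp window around the consensus summit (the median position of the highest summit over the 17 mice), from the plus strand of the GRCm38 (mm10) reference genome, and is named by the nearest protein-coding gene. The first set holds the strongest members, meaning those whose lowest rank over the 17 mice was highest, together with the strongest members of 2 small RNA kinds. Capitals mark the 20 bases at the summit for the members near Rab10, Gm8797 and Axin2, the match to the mitochondrial genome near Galc, the match to the Rn4.5s RNA near Pdia4 and the tRNA gene near Atp10a. The window near Galc is a mitochondrial match from end to end.
Rab10 (chr12:3109898-3110097): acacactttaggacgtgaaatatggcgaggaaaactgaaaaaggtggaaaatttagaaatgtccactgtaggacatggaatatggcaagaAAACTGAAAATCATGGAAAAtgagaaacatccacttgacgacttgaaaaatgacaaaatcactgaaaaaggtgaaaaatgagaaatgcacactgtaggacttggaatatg
Galc (chr12:97061440-97061639): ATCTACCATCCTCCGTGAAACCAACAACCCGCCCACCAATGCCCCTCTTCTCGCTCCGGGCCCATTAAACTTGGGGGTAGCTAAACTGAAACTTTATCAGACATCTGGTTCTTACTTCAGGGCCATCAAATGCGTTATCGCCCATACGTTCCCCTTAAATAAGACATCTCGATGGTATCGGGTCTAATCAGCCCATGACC
Gm8797 (chr3:5860533-5860732): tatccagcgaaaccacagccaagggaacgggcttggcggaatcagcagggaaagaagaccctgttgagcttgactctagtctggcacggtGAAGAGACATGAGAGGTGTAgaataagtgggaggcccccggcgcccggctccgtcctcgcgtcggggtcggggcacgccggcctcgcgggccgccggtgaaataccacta
Axin2 (chr11:109011762-109011961): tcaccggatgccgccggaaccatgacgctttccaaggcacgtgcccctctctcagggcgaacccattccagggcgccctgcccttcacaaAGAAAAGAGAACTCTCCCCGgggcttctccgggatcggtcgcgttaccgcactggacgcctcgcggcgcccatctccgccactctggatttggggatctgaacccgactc
Pdia4 (chr6:47763293-47763492): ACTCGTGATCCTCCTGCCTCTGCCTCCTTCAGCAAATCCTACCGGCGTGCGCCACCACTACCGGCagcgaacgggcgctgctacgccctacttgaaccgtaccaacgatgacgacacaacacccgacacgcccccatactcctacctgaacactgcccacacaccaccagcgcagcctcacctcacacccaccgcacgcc
Atp10a (chr7:58399152-58399351): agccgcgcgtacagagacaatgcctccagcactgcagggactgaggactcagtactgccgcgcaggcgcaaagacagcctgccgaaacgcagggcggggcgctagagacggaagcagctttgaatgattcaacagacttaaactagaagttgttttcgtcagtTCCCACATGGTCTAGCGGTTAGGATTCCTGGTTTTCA

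The second set holds the strongest members with a match to the motif of a transcription factor that is well known at distal elements, plus a member that overlaps a tested enhancer. Capitals mark the CTCF match near Ntm, the AP-1 match near Gdi2, the HNF1 match near Sertad2, the HNF4 match near Dpy19l1 and the 20 bases at the summit near Fos. The windows near Gdi2 and Dpy19l1 resembled 23 and 6 places of the reference by alignment, their own included, so they are shown for their letters and not as single distal elements, whereas those near Ntm, Sertad2 and Fos had 1 place each.
Ntm (chr9:30137968-30138167): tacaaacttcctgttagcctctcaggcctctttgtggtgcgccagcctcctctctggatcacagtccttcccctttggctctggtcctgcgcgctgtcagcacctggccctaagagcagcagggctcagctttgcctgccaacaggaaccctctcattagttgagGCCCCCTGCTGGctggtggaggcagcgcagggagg
Gdi2 (chr13:3373069-3373268): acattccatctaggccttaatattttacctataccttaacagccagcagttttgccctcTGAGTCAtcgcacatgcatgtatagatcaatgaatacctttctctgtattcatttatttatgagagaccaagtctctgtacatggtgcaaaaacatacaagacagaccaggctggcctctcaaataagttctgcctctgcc
Sertad2 (chr11:20477475-20477674): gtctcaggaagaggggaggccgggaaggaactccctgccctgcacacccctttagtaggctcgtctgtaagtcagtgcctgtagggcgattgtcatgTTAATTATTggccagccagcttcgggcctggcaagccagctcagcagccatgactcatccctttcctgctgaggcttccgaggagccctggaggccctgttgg
Dpy19l1 (chr9:24541984-24542183): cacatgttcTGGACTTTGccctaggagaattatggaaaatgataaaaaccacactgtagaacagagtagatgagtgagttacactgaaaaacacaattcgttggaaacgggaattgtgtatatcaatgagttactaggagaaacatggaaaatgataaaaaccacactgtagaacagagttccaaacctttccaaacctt
Fos (chr12:85455296-85455495): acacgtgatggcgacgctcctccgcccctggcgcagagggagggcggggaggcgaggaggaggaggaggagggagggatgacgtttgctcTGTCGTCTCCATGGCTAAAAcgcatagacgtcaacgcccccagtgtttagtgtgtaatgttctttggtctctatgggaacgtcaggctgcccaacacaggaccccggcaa

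The third set holds members with the smallest p-value for a direction of a comparison between groups, described further on, namely higher or lower in Dapa than in Case (AI597479 and Ppp1r1b) and lower in Dapa than in Ctrl (Eif2s3x). Capitals mark the 20 bases at the summit.
AI597479 (chr1:43117494-43117693): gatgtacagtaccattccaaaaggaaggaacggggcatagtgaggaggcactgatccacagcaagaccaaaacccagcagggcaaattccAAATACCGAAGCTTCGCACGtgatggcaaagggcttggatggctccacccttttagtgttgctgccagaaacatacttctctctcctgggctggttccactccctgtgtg
Ppp1r1b (chr11:98342651-98342850): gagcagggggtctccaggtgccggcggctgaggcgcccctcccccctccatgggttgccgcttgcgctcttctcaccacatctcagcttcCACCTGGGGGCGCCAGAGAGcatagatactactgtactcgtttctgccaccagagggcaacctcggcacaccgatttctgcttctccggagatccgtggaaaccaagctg
Eif2s3x (chrX:94177821-94178020): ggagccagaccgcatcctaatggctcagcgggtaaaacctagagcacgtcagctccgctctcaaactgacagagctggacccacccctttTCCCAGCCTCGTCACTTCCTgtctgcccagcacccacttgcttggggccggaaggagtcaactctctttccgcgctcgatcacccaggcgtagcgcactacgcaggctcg

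The files held between 29702 summits (Case 4) and 56659 summits (Ctrl 2) per mouse, each with a score that the peak caller gives on a −log10 scale. The score of the last summit within the 29702 ran from 2.01 in Case 4 to 5.53 in Ctrl 2, so presence was judged at unequal scores. The read depth behind the lists is unknown. A region's level was therefore expressed as a rank percentile, the position of its highest summit among the 29702 summits of that mouse, with 100 the strongest. A rank percentile is relative to the other summits of the same mouse and does not measure accessibility itself. As a check of the tissue label, 33 of 34 proximal tubule genes had a promoter summit in some mouse. The number per mouse was 28 to 31 in Ctrl, 17 to 27 in Case and 22 to 30 in Dapa, so every Case mouse had fewer than every Ctrl mouse, and the part of this shift in the comparisons of Case with Ctrl was not tested. Of 25 leukocyte genes, 0 to 1 had a promoter summit in Ctrl mice, while Case 3 had 8 and Dapa 8 had 4, and Case 3 also had the fewest proximal tubule promoters (17). At most 3 of 16 endothelial genes had a promoter summit in any mouse, and defining genes such as Cdh5, Pecam1 and Ptprc had none in any mouse.

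Presence in all 17 mice chose the members, and Case 3 was the mouse that most often missed a region. Of 532 intergenic regions found in exactly 16 mice, 255 lacked a summit in Case 3 alone. Case 2 was the missing mouse for 50, Dapa 10 for 32, and Ctrl 2, Case 4 and Dapa 8 for 31 each. The remaining mice accounted for 3 to 15 each. The complete list of Case 3 held 29845 summits, hardly more than the 29702 used, so whether weaker summits lay in these regions cannot be seen, whereas Ctrl 2 listed 56659 and 24 of its 31 missed regions were further down that list. Leaving Case 3 out of the rule gave 1034 intergenic regions instead of 780, and leaving out any other mouse gave 783 or more. The part of cell composition or depth in this was not tested.

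**Figure D1:**
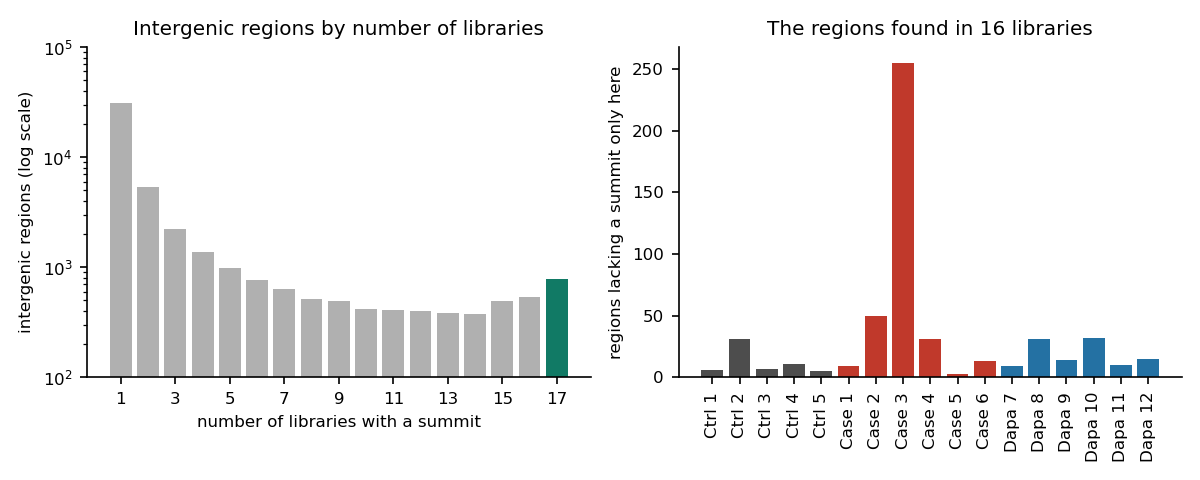
Left, number of intergenic merged regions (log scale) by the number of libraries with a summit, from 1 to 17. Right, for the 532 regions found in 16 libraries, the number lacking a summit only in the library named on the x axis, coloured by group, with 255 in Case 3.

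The members were spread over all chromosomes, with 13 on X and 8 on Y. Their distance from the nearest annotated start of any gene ran from 1005 bp to 392.7 kb, with quartiles of 5.65, 12.7 and 26.5 kb. The nearest protein-coding start lay at a median distance of 27.0 kb. The median width was 686 bp, and the highest summit moved over a median range of 174 bp across the 17 mice, with an upper quartile of 300.25 bp and a maximum of 1773 bp.

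At the threshold of 1 kb, the members just outside were chr7:46833194-46833745, 1005 bp from the start of Gm45308 and 8.01 kb upstream of Ldha (lactate dehydrogenase A), with a lowest, median and highest percentile of 41.2, 78.6 and 98.2, and chr9:61370300-61370934, 1010 bp from Gm10655. The regions just inside, which were not members, were chr8:128356745-128358478, 993 bp from a start of Nrp1 and with percentiles of 24.6, 59.2 and 83.7, and chr8:84663803-84664485, 984 bp from Gm26664 and with percentiles of 58.5, 76.4 and 90.9. At the threshold on rank, the weakest members came close to the end of a list. The member near Slc9a8 (chr2:167415926-167416702) stood at 0.0741 in Dapa 8, the member near Pccb (chr9:101036763-101037549) at 0.544 in Case 3, and a member near Gm21119 (chr8:20704141-20704847) at 0.766 in Ctrl 3. Members were chosen by presence in every mouse, so these values at the thresholds are given as a description.

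Presence in every mouse did not mean a strong summit in every mouse. The median percentile over the 17 mice ran from 39.7 to 99.99 among the members, with a median of 80.1. The lowest percentile over the mice had quartiles of 24.9, 46.3 and 70.4. In 54 members every mouse was above percentile 99, in 102 every mouse was above 90, and in 343 every mouse was above 50, whereas 59 members fell under 10 in some mouse. The lowest value was in Case 3 for 157 members (20.1%), followed by Ctrl 2 for 89 and Ctrl 3 for 86. Many low scores were tied within a mouse, and tied summits received their mean rank.

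By sequence, the members fell into 4 classes, which were defined after values had been seen. A 200 bp window was called multi-copy when the median of its 31-base words occurred at least 2 times in the reference genome. Windows with at least 10 telomere hexamers (TTAGGG or its complement) were set apart, as were those matching the mitochondrial genome at 90% identity or more over at least 50 bp. There were 581 members called single-copy by this count of exact words, 146 other multi-copy members, 47 telomere repeat members and 6 with a mitochondrial match. Multi-copy windows of any class made up 23.1% of the members, beside 14.8% of constitutive intronic regions, 2.49% of constitutive promoters and 31.8% of intergenic regions found in 2 to 16 mice. Telomere repeats made up 6.03% of the members, beside 3.05% of the intronic regions, 0.0807% of the promoters and 0.242% of the other intergenic regions.

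Exact words miss copies that have diverged, and copies that the assembly lacks. The windows of the 581 single-copy members were therefore aligned to the reference chromosomes with BLASTN, and a place was counted as similar at 80% identity or more over at least 75% of the window. By this count 515 members had at most 1 place, their own, and 66 (11.4%) had more. The similar copies were concentrated among the strongest members, with 10 of the 14 single-copy members of the strongest 50. Single-copy below means single-copy by exact words only.

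The strongest members were mostly repeats. Among the 50 with the highest lowest percentile, 19 were telomere repeats, 13 were other multi-copy members, 4 were mitochondrial matches and 14 were single-copy. The top member, near Rab10 at the centromere-side start of the assembled chromosome 12 (chr12:3109737-3110252), was at 99.99 or above in every mouse and its words occurred 36 times at the median. Its AT-rich sequence, shown above, is masked as a repeat over its whole length. The member near Galc (chr12:97061281-97061797) was at 99.99 in all mice, and the 6 mitochondrial matches, with identities of 90.9 to 100% over 129 to 432 bp, lay near Galc, Nxph1, Abcb11, G6pd2, Ric8b and Nfasc. These are copies of mitochondrial DNA in the nuclear genome, and reads from mitochondria, which carry no nucleosomes, can be placed there.

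The telomere repeat members carried 11 to 33 hexamers per window, with a median of 20. Only 16 of the 47 lay within 150 kb of the high-coordinate end of a chromosome, each on a different chromosome. The distance of the others from the chromosome start was not measured. The array near Tmem196 (chr12:120028601-120029147) stood between 99.95 and 99.98 in every mouse. Telomere arrays took 12 of the 20 strongest places.

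The 14 single-copy members among the strongest 50 had windows whose words occurred once in the reference at the median, and 4 of them, near Axin2, Pak3, Rpp21 and Frmd4a, also had no similar second place. This does not show that they are unique in the mouse genome, since arrays that the assembly lacks were not searched. The highest was chr11:109011530-109012146, named by Axin2 at 68.2 kb for its position only. It ran from 99.96 to 99.98 over the 17 mice and had 64% GC and 19 CpG dinucleotides in its window. What kind of sequence this window is was not determined, so it is not read as a distal element of a gene. The member near Dpy19l1 (chr9:24541820-24542351) ran from 99.88 to 99.93, that near Pak3 on the X chromosome (chrX:143482767-143483343) from 99.86 to 99.89, and that near Hic2 (chr16:17222091-17222605) from 99.84 to 99.92. The Dpy19l1 window had 6 similar places and holds 1 stretch of 36 bases at 2 positions, and the Hic2 window had 2 similar places. The Hic2 window had 68.0% GC and 19 CpG, whereas the Dpy19l1 and Pak3 windows were AT-rich, with 37.0% and 33.0% GC and 2 CpG each.

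Small RNA genes formed a separate group. Between Ezh2 and Pdia4 on chromosome 6, 17 members lay in 2 runs, chr6:47654843-47685694 with 8 and chr6:47739731-47778470 with 9, and all 17 matched Rn4.5s, a rodent small noncoding RNA that RNA polymerase III transcribes from tandem copies. Their median percentiles ran from 90.6 to 98.5. In total 20 members matched Rn4.5s, out of 24 such regions among the 7866. A tRNA gene was overlapped by 14 members (1.79%), by 20 constitutive promoters (0.323%) and by 0 constitutive intronic regions. The tRNA member near Atp10a (chr7:58398853-58399520), shown above, ran from 70.2 to 97.3.

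Tested enhancers were present too. RefSeq lists elements of the VISTA collection, which were tested for activity in transgenic mouse embryos, and 16 members overlapped such an element (2.05%), beside 5 intronic regions (0.636%) and 11 promoters (0.178%). They lay near Fos, Zfp36l2, Wee1, Nuak2, Slc16a1 and Irf2bpl among others. The median over these 16 was 71.8 ± 0.882 in Ctrl (SD, n = 5), 76.7 ± 8.95 in Case (n = 6) and 77.4 ± 2.95 in Dapa (n = 6). Fos, an AP-1 subunit induced by many stimuli, had members on both sides. The upstream member, chr12:85454978-85455791 at 18.5 kb and shown above, ran from 76.2 to 97.5, and the downstream member, chr12:85485739-85486392 at 11.2 kb, from 81.1 to 96.5.

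A further 86 members (11.0%) lay within 1 kb of a start in RefSeq that the GENCODE rule had not excluded, and 694 did not. Among them chr4:118547692-118548272 near Tmem125 ran from 99.85 to 99.90, and chr11:3123809-3124349, 77 bp from the start of Pisd-ps1, from 98.8 to 99.8. The member chr11:31870499-31871102, 140 bp from a RefSeq start of Cpeb4, a translation regulator, ran from 90.1 to 98.7 and had 70.5% GC and 18 CpG. For such members the word distal depends on the annotation.

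Some members came in groups, with 178 of them within 50 kb of another member and 86 in 22 clusters of 3 or more. Besides the Rn4.5s runs, single-copy clusters lay near Irf2bpl and Lrrc74a on chromosome 12 (5 members over 72.3 kb, medians 65.4 to 82.9), near Ptma on chromosome 1 (3 members, medians 61.6 to 87.7), and near Krt8, Krt18 and Krt78 on chromosome 15 (3 members, medians 69.2 to 86.9). Clusters near Gm21119 and Gm31371 on chromosome 8 were mostly multi-copy.

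In base composition the members resembled introns more than promoters. The median GC content was 54.0%, equal to that of constitutive intronic regions, beside 66.0% in constitutive promoters and 50.5% in intergenic regions of 2 to 16 mice. The median number of CpG per window was 3 in the members and 17 in the promoters. These differences were not tested.

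Transcription factor motifs were counted in the 200 bp windows, on both strands, for 27 motifs, with exact 95% binomial intervals that cover counting error only. The TEAD letters GGAATG were in 13.5% of the members, beside 11.8% of intergenic regions of 2 to 16 mice and 6.66% of constitutive promoters. The AP-1 letters TGANTCA were in 9.87% of the members (interval 7.87 to 12.2%), beside 7.34% of the other intergenic regions and 2.57% of the promoters. AP-1 and TEAD factors bind at enhancers in many cell types. The SP/KLF letters GGGGCGGG were in 6.54% (4.91 to 8.51%), beside 1.44% and 34.4%, so the members stood between other intergenic regions and promoters.

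Among the factors that define kidney epithelium, the HNF1 letters TTAATNATT were in 4.36% of the members, 3.92% of the other intergenic regions and 0.565% of the promoters. The HNF4 letters CAAAGTCCA were in 2.69%, 2.06% and 0.5%. HNF1 and HNF4 factors control proximal tubule genes. A CTCF match was in 3.08% of the members (1.98 to 4.54%), beside 5.26% of the other intergenic regions and 0.968% of the promoters, so the CTCF share was not higher in the constitutive set. Promoter motifs were rarer than in promoters. The ETS letters CCGGAAGT were in 0.897% of the members (0.362 to 1.84%), 0.242% of the other intergenic regions and 7.36% of the promoters, the NFY letters CCAATCAG in 1.92% (1.08 to 3.15%), 0.941% and 7.60%, and the CRE letters TGACGTCA in 0.513% (0.140 to 1.31%), 0.314% and 3.28%. No searched motif was found in 295 members. A match is a description of the letters and not a bound site.

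**Figure D2:**
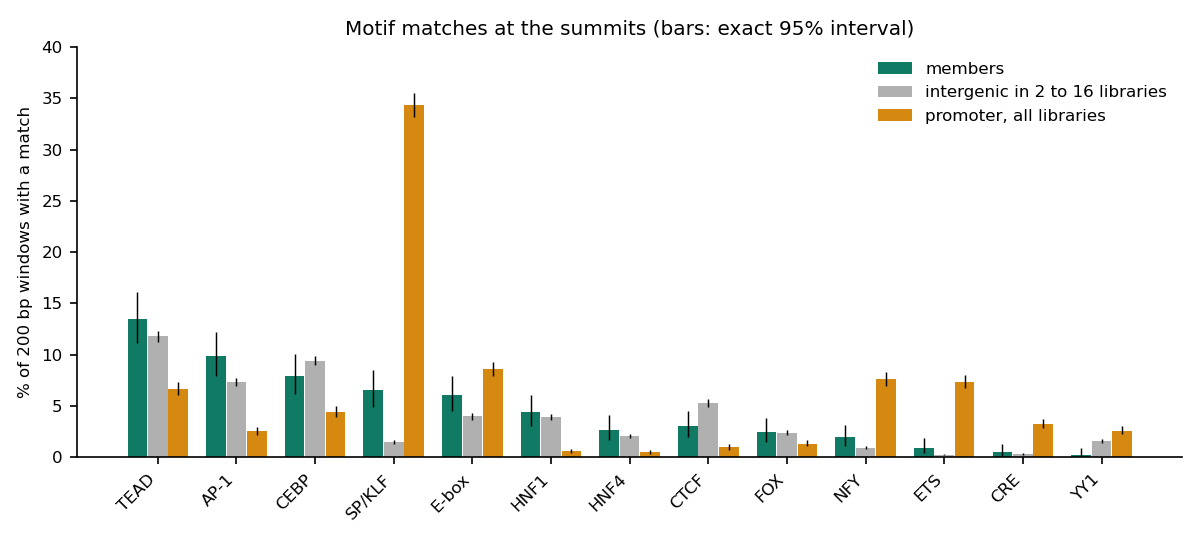
Percent of 200 bp windows with a match on either strand for 13 motifs, in the 780 members, in intergenic regions of 2 to 16 libraries and in constitutive promoters, with exact 95% binomial intervals as error bars. AP-1 stands at 9.87% in the members and SP/KLF at 34.4% in promoters.

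Across mice, the median percentile over the 780 members was 79.7, 78.4, 79.0, 80.6 and 80.4 in the Ctrl mice, 84.5, 82.3, 74.9, 83.3, 85.0 and 84.5 in Case 1 to 6, and 83.2, 78.6, 84.8, 83.4, 83.6 and 83.8 in Dapa 7 to 12. The group means were 79.6 ± 0.925 in Ctrl (SD, n = 5), 82.4 ± 3.81 in Case (n = 6) and 82.9 ± 2.17 in Dapa (n = 6). Case 3 and Dapa 8 lay below all Ctrl mice or within their range, and the other Case and Dapa mice lay above all Ctrl mice. Constitutive promoters stood at 86.4 ± 0.484, 85.2 ± 0.445 and 85.0 ± 1.22 in the same order. Within a group the members varied by a median SD of 8.24 points in Ctrl, 12.0 in Case and 10.5 in Dapa, which was more than the promoters (5.80, 8.97 and 9.28).

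The difference between groups followed the sequence class. The single-copy members had group medians of 77.3 ± 0.986 in Ctrl, 78.1 ± 5.62 in Case and 79.8 ± 1.91 in Dapa, with Case 3 at 67.1 and Dapa 8 at 76.1. The 515 of them without similar copies stood at 76.3 ± 0.586, 76.3 ± 6.76 and 78.3 ± 2.18, and the 66 with similar copies at 88.9 ± 2.97 in Ctrl, 93.2 ± 1.33 in Case and 92.3 ± 2.18 in Dapa. Other multi-copy members stood at 83.9 ± 3.37 in Ctrl (80.2 to 88.0), 92.3 ± 1.62 in Case (90.4 to 94.4) and 91.2 ± 2.08 in Dapa (89.1 to 94.6), so that every db/db mouse was above every Ctrl mouse. Telomere repeat members stood at 97.9 ± 1.13 in Ctrl, 99.4 ± 0.186 in Case and 99.3 ± 0.174 in Dapa. Here the groups overlapped, since Ctrl 4 at 99.15 was above Case 5 at 99.09 and Dapa 11 at 98.99. These are descriptions of a set chosen with earlier results known and carry no test.

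**Figure D3:**
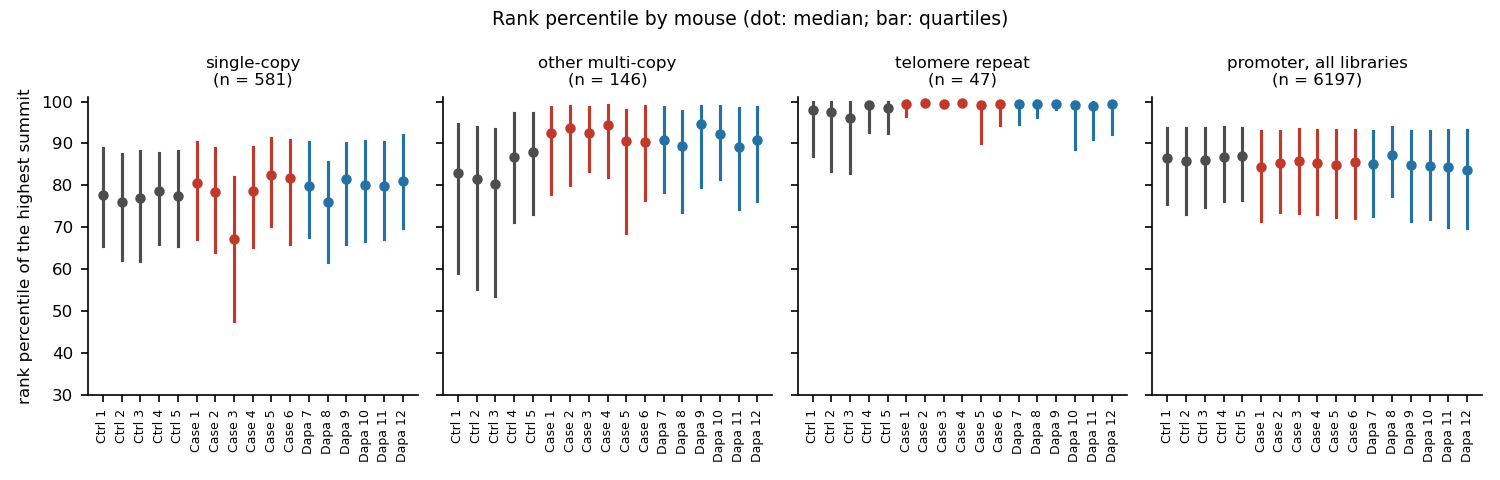
Median (dot) and quartiles (bar) of the rank percentile over the regions of each class, by mouse, for single-copy, other multi-copy and telomere repeat members and for constitutive promoters. Case 3 stands lowest among single-copy members, at 67.1, and the Ctrl mice stand lowest among multi-copy members, at 80.2 to 88.0.

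The comparison of Case with Ctrl asks which constitutive regions rank differently in the diabetic kidney. Each region was tested with limma over all 7866 constitutive regions with Benjamini-Hochberg adjustment, with an adjusted p under 0.05 as the threshold. Of the 780 members, 22 were higher in Case and 0 were lower (2.82%, against 0.509% of all constitutive regions called in either direction). Among the 786 constitutive intronic regions, 10 were higher and 0 lower (1.27%). By class, 15 of 146 other multi-copy members, 6 of 581 single-copy members, 1 of 47 telomere repeat members and 0 of 6 mitochondrial matches were called. The median difference was 1.04 percentile points over the members, with 452 of 780 above 0, beside −1.08 points over all constitutive regions, −1.43 over promoters and 0.04 over intronic regions. It was 6.35 points over other multi-copy members, with 118 of 146 above 0, and −0.01 over single-copy members, where it was −0.65 over the 515 without similar copies and 1.80 over the 66 with them. At an unadjusted p under 0.05 there were 147 higher and 29 lower members (22.6%), beside 470 higher and 527 lower among all 7866 constitutive regions (12.7%). Constitutive intronic regions had 105 higher and 26 lower (16.7%), so a skew to higher values was not particular to the members. With the logit of the percentile in place of the percentile, 56 members were higher and 11 lower, and with the log2 score centred on the median of the mouse, 151 were higher and 11 lower. The shares of all constitutive regions called on these 2 scales are not given here, so these counts have no background beside them.

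These calls rested on few mice. Leaving out Ctrl 4 raised the count of members called to 53 and leaving out Ctrl 5 to 37. It was 9 without Case 6, 10 without Ctrl 3, Case 1 or Case 2, 11 without Ctrl 1, 12 without Case 3 or Case 4, and 14 without Case 5 or Dapa 7. With Case 3 and Dapa 8 both left out it was 7, and with all multi-copy regions left out of the fit it was 0, with 98 of the members that remained at an unadjusted p under 0.05. An exact permutation test per region called 0 members after adjustment, with 180 at an unadjusted p under 0.05, and its smallest possible p with these groups is 0.00216. For the counts under these alternatives the share over all constitutive regions is not given here.

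The smallest p belonged to the telomere array near Tusc1 (chr4:93844159-93844737). It stood at 96.5, 96.3, 97.2, 96.6 and 98.2 in Ctrl 1 to 5, at 99.5, 99.6, 99.6, 99.6, 99.4 and 98.9 in Case 1 to 6, and at 98.7, 99.3, 99.5, 99.1, 99.0 and 99.0 in Dapa 7 to 12. All db/db mice were above all Ctrl mice. The difference of Case from Ctrl was 2.45 points (SE 0.357, adjusted p = 0.00676 by limma), and it was the only telomere repeat member past the threshold. The difference was above 0 in 47 of 47 telomere repeat members, with a median of 1.93 points.

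Near H60c, a ligand of the NKG2D receptor, a repeat of 49 copies at the start of chromosome 10 (chr10:3116098-3116974) stood at 86.6, 82.7, 81.4, 91.4 and 91.3 in Ctrl mice and between 95.7 and 98.2 in Case mice, 10.9 points higher (SE 1.61, adjusted p = 0.00676). The satellite-like, AT-rich member 1350.8 kb from Cdh6 (chr15:14524120-14524808, 162.5 copies at the median, 26.5% GC) stood at 74.1, 50.6, 47.8, 55.5 and 65.5 in Ctrl mice and at 93.3, 94.7, 94.1, 94.9, 78.8 and 90.8 in Case mice. Its difference was 32.4 points (SE 5.40, adjusted p = 0.0118), and only Case 5 came near the highest Ctrl mouse. Near Sulf1, which encodes an extracellular sulfatase, a member with 5 copies (chr1:12657269-12657980) rose from 85.8 ± 4.41 to 97.4 ± 1.92 (adjusted p = 0.00877). Members near Gm3460 (chr14:6637003-6637658) and Gm8297 (chr14:4968885-4969504) rose by 6.50 and 17.1 points. Near Gpm6a, chr8:55362822-55364552 rose by 14.0 points (adjusted p = 0.0153) when judged by its highest summit, and differed by −0.207 points when the summits of a mouse were averaged.

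Of the 6 single-copy members called in Case against Ctrl, 4 had similar copies elsewhere by alignment, with 5 places for the member near Epha7, 11 and 6 for those near Vmn1r238 and 15 for that near Peg10, and 2 had none, near Fam69b and Tnfrsf14. They included a pair near Vmn1r238 at the start of chromosome 18, chr18:3009787-3011158 and chr18:3008469-3009086. The first stood at 25.7, 39.3, 31.7, 80.4 and 32.9 in Ctrl mice and at 80.6, 83.9, 90.01, 79.9, 86.0 and 92.7 in Case mice, and rose by 43.5 points (SE 7.96, adjusted p = 0.0202). Its Ctrl 4 value lay within the Case range, and without Ctrl 1, Ctrl 3 or Case 6 the adjusted p was 0.0581, 0.0621 and 0.0540. The second rose by 7.69 points (SE 1.54, adjusted p = 0.0323). The member 15.04 kb from Peg10, an imprinted gene derived from a retrotransposon, chr6:4762126-4762757, stood at 18.2, 28.3, 6.79, 77.8 and 72.1 in Ctrl mice and between 84.4 and 94.7 in Case mice. It rose by 48.7 points (SE 10.5, adjusted p = 0.0434), with 2 of the 5 Ctrl mice far above the other 3. The member 15.9 kb from Tnfrsf14, which encodes the receptor HVEM, chr4:154944149-154944726, stood at 23.3, 31.5, 45.5, 51.2 and 76.2 in Ctrl mice and between 75.3 and 96.3 in Case mice (40.4 points higher, SE 8.66, adjusted p = 0.0433) and carried a CTCF match.

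Among the remaining single-copy calls, the member 12.8 kb from Fam69b and 54.9 kb from Egfl7, an endothelial gene, chr2:26646756-26647340, rose from 86.4 ± 7.21 to 97.2 ± 1.38 (adjusted p = 0.0402), and the member near Epha7 (chr4:28176642-28177246) rose from 94.5 ± 2.89 to 99.5 ± 0.123 (adjusted p = 0.0323). Members of the Y chromosome near Zfy1 (chrY:144691-146362 and chrY:261074-261602), both multi-copy, rose by 14.5 and 6.20 points (adjusted p = 0.0423 and 0.0424). In many of the called members Ctrl 4 and Ctrl 5 were the highest of the Ctrl mice.

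**Figure D4:**
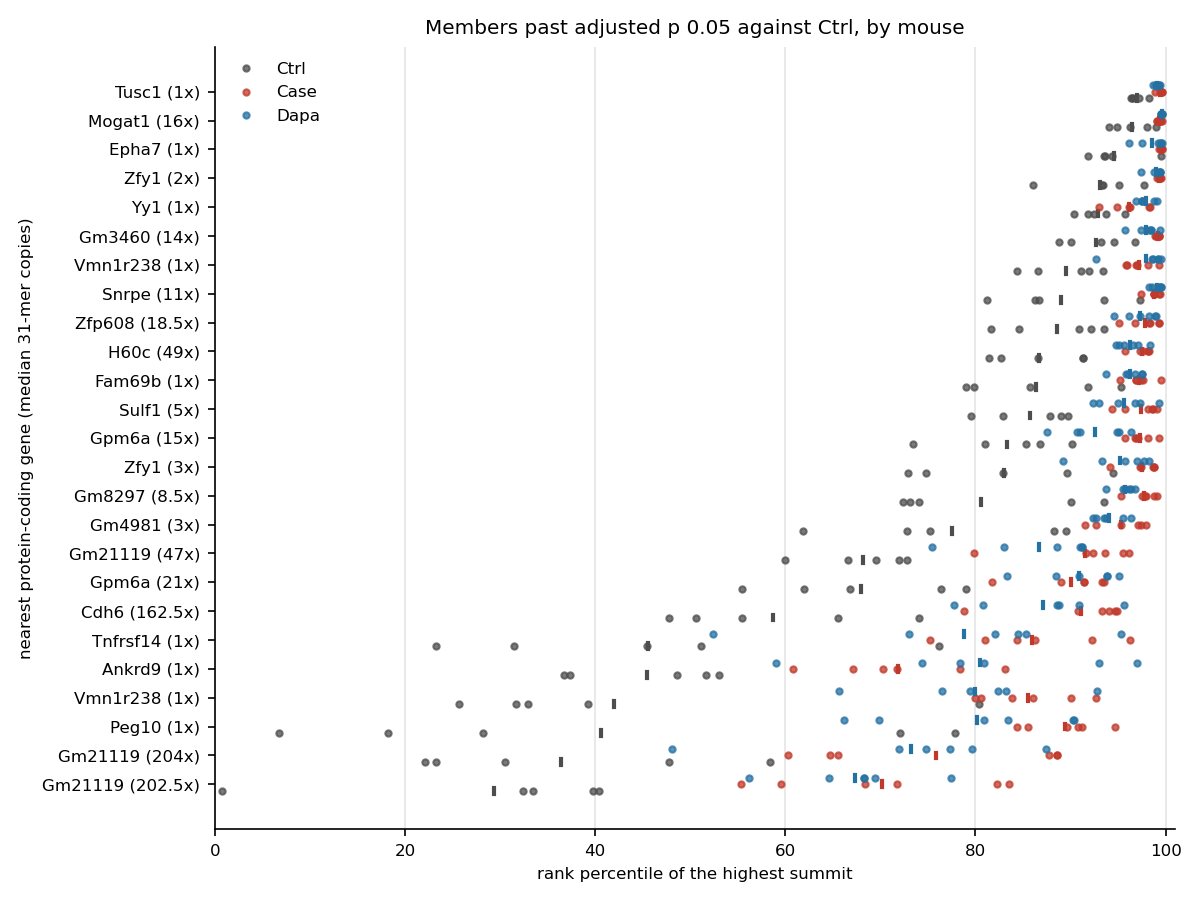
Rank percentile of the highest summit in each mouse (points) and group mean (vertical bars) for the 25 members past an adjusted p of 0.05 against Ctrl in Case, in Dapa or in both, each named by the nearest protein-coding gene with its copy number. Ctrl points lie to the left, and the member near Peg10 has Ctrl values from 6.79 to 77.8.

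On the rank percentile, no member passed the threshold for a lower value in Case, whereas 11 did on the logit. The first by p was chr15:34795075-34795760, 41.9 kb from the potassium channel gene Kcns2, with 83.8, 83.8, 74.3, 85.0 and 86.3 in Ctrl mice and 39.0, 59.5, 30.9, 65.2, 58.5 and 60.8 in Case mice (difference −30.3 points, SE 7.01, adjusted p = 0.0598). The groups did not overlap. A member 50.5 kb from Slc22a16, a carnitine transporter gene, chr10:40519403-40520243, had a difference of −35.2 points (SE 8.14, adjusted p = 0.0598), and a member 46.3 kb from Olfm4 (chr14:80045964-80047200) had −46.9 points (SE 11.0, adjusted p = 0.0620). The Olfm4 member stood between 73.5 and 83.4 in Ctrl mice and at 39.0, 33.2, 16.8, 25.8, 6.25 and 66.1 in Case mice.

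Counting only members whose groups did not overlap, 42 were higher in every Case mouse than in every Ctrl mouse and 11 were lower (5.38% and 1.41%, against 1.3% and 1.56% of all constitutive regions). In constitutive intronic regions the shares were 3.82% and 0.636%. Of the 42, 30 were other multi-copy, 5 were telomere repeats and 7 were single-copy, and of the 11 lower, 8 were single-copy.

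The comparison of Dapa with Ctrl uses the same Ctrl mice, so the values of both comparisons are not independent. Here 15 members were higher and 0 lower (1.92%, against 0.432% of all constitutive regions), with 10 other multi-copy, 4 single-copy and 1 telomere repeat member. Among constitutive intronic regions, 4 were higher and 1 lower (0.636%). At an unadjusted p under 0.05 there were 139 higher and 17 lower members (20%), beside 481 higher and 584 lower among all constitutive regions (13.5%). Constitutive intronic regions had 111 higher and 22 lower (16.9%). With the logit of the percentile, 27 members were higher and 2 lower, and with the log2 score centred on the median of the mouse, 64 were higher and 3 lower. The median difference was 1.67 points over the members, −0.96 over all constitutive regions, 4.73 over other multi-copy members and 1.40 over single-copy members. The count depended on single mice. It was 41 without Ctrl 4, 0 without Ctrl 3 or Dapa 9, 1 without Dapa 7, 2 without Case 1 or Dapa 10, 4 without Ctrl 1, Ctrl 2 or Dapa 12, 5 without Dapa 11, 8 without Case 5, and 9 without Case 3 or Case 4. With all multi-copy regions left out it was 0, with 84 of the members that remained at an unadjusted p under 0.05. For the counts on other scales or with mice or regions left out, the share over all constitutive regions is not given here.

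The telomere array near Tusc1 was 2.13 points higher in Dapa than in Ctrl (adjusted p = 0.0247), beside 2.45 in Case. The repeat near H60c was 9.59 points higher (adjusted p = 0.0247), beside 10.9 in Case, and that near Cdh6 28.4 points higher (adjusted p = 0.0349), beside 32.4. The second member near Vmn1r238 (chr18:3008469-3009086) was 8.48 points higher, a member of 11 copies near Snrpe (chr1:133594446-133595640) 10.1 points higher, and another near Gpm6a (chr8:55121832-55123692) 23.0 points higher (each adjusted p = 0.0349).

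Members past the threshold in Dapa and not in Case, against the same Ctrl mice, were 3, near Ankrd9, Yy1 and Mogat1. The single-copy member 13.1 kb from Ankrd9, chr12:110991472-110992736, stood at 37.4, 36.7, 53.01, 48.6 and 51.6 in Ctrl mice, at 67.1, 78.4, 71.7, 83.2, 70.2 and 60.8 in Case mice and at 78.3, 74.3, 97.0, 93.0, 80.9 and 59.0 in Dapa mice. All db/db mice were above all Ctrl mice. It was 35.0 points higher in Dapa (SE 6.68, adjusted p = 0.0349) and 26.4 points higher in Case (adjusted p = 0.0852), and Dapa and Case differed by 8.54 points (SE 6.37, adjusted p = 0.846). The member 34.9 kb from Yy1, which encodes a widely expressed factor of promoters and enhancers, chr12:108757822-108758401, stood at 92.8 ± 2.00 in Ctrl, 96.1 ± 2.05 in Case and 97.9 ± 0.878 in Dapa (5.06 points higher in Dapa, adjusted p = 0.0376). A RefSeq start lay 80 bp from it, and Dapa and Case differed by 1.75 points (adjusted p = 0.810). The member near Mogat1 (chr1:78573559-78574279) had 16 copies and was 3.13 points higher in Dapa than in Ctrl (adjusted p = 0.0376). It was 2.90 points higher in Case than in Ctrl (adjusted p = 0.0518), with every Case mouse above every Ctrl mouse, and Dapa and Case differed by 0.24 points (adjusted p = 0.972).

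On the rank percentile, none was called lower in Dapa. The first by p was chrX:94177610-94178413, 34.6 kb from the translation factor gene Eif2s3x and shown above, with 87.6, 50.6, 76.8, 66.0 and 79.6 in Ctrl mice and 35.0, 48.8, 41.2, 43.3, 15.2 and 35.7 in Dapa mice (difference −35.6 points, SE 9.57, adjusted p = 0.126). The groups did not overlap. A member 51.3 kb from Gpc5 (chr14:115040462-115041276) had −38.3 points (adjusted p = 0.163) and one near Rpusd4 (chr9:35318434-35319204) −37.5 points (adjusted p = 0.202). Members whose groups did not overlap were 32 higher and 5 lower (4.10% and 0.641%, against 1.12% and 1.75% of all constitutive regions). In constitutive intronic regions the shares were 2.04% and 0.636%.

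The comparison of Dapa with Case asks what dapagliflozin changed among db/db mice. By limma, 0 members were called (0% of all constitutive regions), with 25 higher and 13 lower at an unadjusted p under 0.05 (4.87%, beside 5.91% of all constitutive regions, 250 higher and 215 lower). The smallest adjusted p was 0.810, the median difference was 0.05 points and the median SE of a member's difference was 7.15 points, so differences of several points in a single member could not be resolved. No member had groups that did not overlap, beside 0.0509% higher and 0.114% lower among all constitutive regions.

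The member with the smallest p was chr1:43117267-43117957, 18.9 kb from AI597479 and shown above. It stood at 48.3, 73.7, 63.2, 70.7, 89.6 and 60.8 in Case mice and at 95.1, 87.0, 88.6, 86.2, 91.1 and 80.9 in Dapa mice, 20.4 points higher (SE 5.75, 95% interval 8.37 to 32.5, unadjusted p = 0.00227, adjusted p = 0.810). Only Case 5 lay within the Dapa range. The Slc22a16 member stood 24.9 points higher in Dapa than in Case (interval 8.55 to 41.2, adjusted p = 0.810), with 91.6, 93.3, 91.8, 79.7 and 77.5 in Ctrl mice, 61.7, 33.2, 30.9, 78.6, 66.7 and 38.4 in Case mice and 65.6, 70.1, 77.8, 76.3, 91.1 and 77.8 in Dapa mice. The lower member with the smallest p, chr11:98341869-98343030, 5.96 kb from Ppp1r1b, which encodes the phosphatase regulator DARPP-32, had a difference of −32.1 points (interval −55.2 to −9.05, adjusted p = 0.810), and its Dapa values ran from 0.988 to 83.4.

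**Figure D5:**
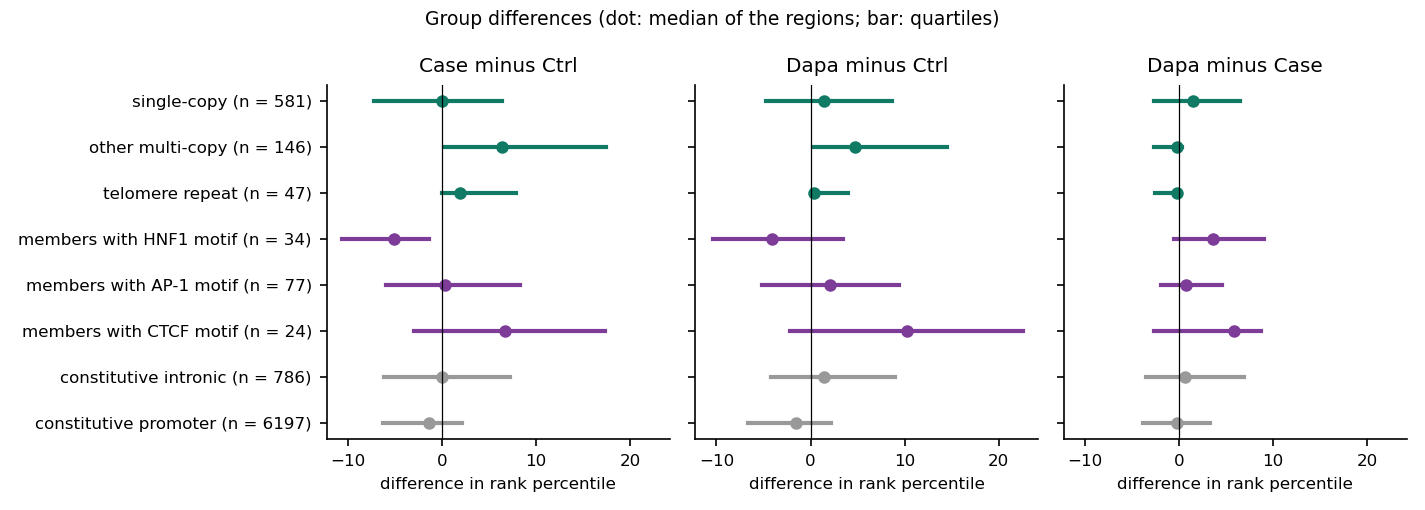
Median (dot) and quartiles (bar) of the differences in rank percentile over the regions of each class, for Case minus Ctrl, Dapa minus Ctrl and Dapa minus Case, with members also split by motif and constitutive intronic and promoter regions below. Other multi-copy members lie at 6.35 and 4.73 points against Ctrl and at −0.22 between Dapa and Case.

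The position of the summit within a region gave no calls. By limma on summit position, 0 members were called in each comparison (0% of all constitutive regions), with 38, 50 and 36 members at an unadjusted p under 0.05 in Case against Ctrl, Dapa against Case and Dapa against Ctrl. These are 4.87%, 6.41% and 4.62% of the members, near the 4.54%, 5.68% and 3.76% of all constitutive regions. The smallest adjusted p over the members was 0.898, 0.705 and 1.00.

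Members with a motif were compared in the same way. The 34 with an HNF1 match had medians of 77.4 ± 1.32 in Ctrl, 72.2 ± 9.94 in Case and 75.5 ± 6.22 in Dapa. In Case against Ctrl 0 of them were called and 4 were lower and 0 higher at an unadjusted p under 0.05. Thus 11.8% were lower, against 3.72% of all members and 6.70% of all constitutive regions. With 3 of the 34, every Case mouse was below every Ctrl mouse (8.82%, against 1.56%). These counts are small and the difference of the shares was not tested. The median difference was −5.09 points, with 6 of 34 above 0. In Dapa against Ctrl, 0 were called, and 1 was lower and 0 higher at an unadjusted p under 0.05. This is 2.94% lower, against 2.18% of all members and 7.42% of all constitutive regions. Every Dapa mouse was below every Ctrl mouse with 0 of the 34 and above with 1. The median difference of Dapa from Ctrl was −4.07 points, with 13 of 34 above 0. Case 3 had the lowest HNF1 value, 53.4, and also the fewest proximal tubule promoter summits, which were fewer in every Case mouse than in every Ctrl mouse. The 24 with a CTCF match stood at 64.5 ± 4.79, 71.3 ± 6.76 and 74.4 ± 6.00. Of these, 1 was called in Case against Ctrl (that near Tnfrsf14, 4.17%, against 2.82% of all members and 0.509% of all constitutive regions) and 0 in Dapa against Ctrl. At an unadjusted p under 0.05, 4 of the 24 were higher and 0 lower in Case than in Ctrl (16.7% higher, against 18.8% of all members and 5.98% of all constitutive regions). In Dapa against Ctrl, 8 were higher and 0 lower (33.3% higher, against 17.8% and 6.11%). These CTCF counts are small and the differences of the shares were not tested. The 77 with an AP-1 match stood at 77.1 ± 1.61, 78.2 ± 6.37 and 79.7 ± 1.58, with 0 called in any comparison. With 0.509%, 0.432% and 0% of all constitutive regions called in Case against Ctrl, Dapa against Ctrl and Dapa against Case, a count of 0 is near the background and no result about AP-1. At an unadjusted p under 0.05 the AP-1 shares were 14.3%, 11.7% and 2.60% in the same order. They were 12.7%, 13.5% and 5.91% of all constitutive regions and 22.6%, 20% and 4.87% of all members. Of 105 members with the TEAD letters, 4 were called higher in Case and 2 higher in Dapa than in Ctrl. These are 3.81% and 1.90%, against 2.82% and 1.92% of all members. Of 51 with the SP/KLF letters, 0 and 1 were called. The differences of these shares were not tested.

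The members were also read against 14 lists of 346 genes for kidney cell types, metabolism and stress, by nearest protein-coding gene. Of the 37 members assigned to a list, 0 were called in any comparison, which is near the 0.509%, 0.432% and 0% of all constitutive regions called in Case against Ctrl, Dapa against Ctrl and Dapa against Case and so no result about the lists. The podocyte, endothelial, leukocyte and interferon lists had 0 members nearest to one of their genes. The closest member lay 42.1 kb from Ptpro, 54.9 kb from Egfl7, 15.8 kb from Cd4 and 104.2 kb from Bst2.

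Among renal transcription factors 7 members were nearest, at Maf (3), Tfcp2l1, Hnf4g, Klf15 and Sall1. Klf15, a regulator of metabolism and podocyte differentiation, had the steadiest, chr6:90450097-90451226 at 11.9 kb, with 88.1 ± 5.59 in Ctrl, 90.6 ± 5.27 in Case and 89.1 ± 5.72 in Dapa. The nearest member of Maf, chr8:115719018-115719721 at 11.6 kb, stood at 77.9 ± 6.80, 71.9 ± 13.9 and 67.3 ± 17.6. The proximal tubule list had 2, at the phosphate transporter gene Slc34a1 (chr13:55391536-55392218, 84.8 ± 8.27, 90.9 ± 4.29 and 91.1 ± 7.46) and at the urate transporter gene Slc22a12 (chr19:6552122-6552750, 68.3 ± 12.4, 70.0 ± 16.2 and 69.8 ± 8.59). The distal nephron list had 1, at the anion exchanger gene Slc4a1.

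In glucose metabolism, 5 members lay nearest to Pdk4, Ldha (2), Foxo3 and Fbp1. Pdk4, a kinase that restrains pyruvate oxidation in fasting and diabetes, had chr6:5509620-5510210 at 13.6 kb, with 97.0 ± 0.392 in Ctrl, 88.9 ± 13.5 in Case, where Case 3 was lowest at 63.2, and 94.9 ± 2.54 in Dapa (Case against Ctrl −8.13 points, SE 4.47, adjusted p = 0.466). The nearer Ldha member, chr7:46838290-46839985, stood at 85.1 ± 4.95, 76.5 ± 8.10 and 79.7 ± 9.58, and the Fbp1 member, at a gluconeogenic enzyme gene of the tubule, at 87.7 ± 4.86, 80.5 ± 18.1 and 83.3 ± 7.60. All 3 spreads overlapped. In lipid oxidation there were 3, at Rxra (2) and Acsl1.

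Immediate early genes, which respond within minutes to stress, had 6 members, at Fos (2), Junb, Klf6, Nr4a1 and Egr1. The Nr4a1 member, chr15:101246143-101246756 at 7.82 kb, was the steadiest, at 92.1 ± 1.14, 95.3 ± 1.41 and 94.9 ± 2.84 (Case against Ctrl 3.17 points, adjusted p = 0.290). The Klf6 member stood at 74.4 ± 9.67, 55.8 ± 22.1 and 65.1 ± 21.8. Oxidative and hypoxia genes had 5, at Adm, Hmox1, Gclc, Egln3 and Vegfa, among which that near Egln3, an oxygen sensor, stood at 91.8 ± 3.96, 70.4 ± 30.0 and 83.7 ± 14.2, down to 30.9.

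Circadian genes had 2 (Nr1d1 and Tef), the injury list 3 (Krt8, Krt18 and Smad7) and the housekeeping list 3, Eef1a1 and Ywhaz among them. The Krt18 member, chr15:102017840-102018454 at 10.0 kb from a keratin gene of simple epithelia, stood at 79.9 ± 5.36 in Ctrl, 93.1 ± 3.54 in Case and 87.6 ± 6.86 in Dapa. Its Case difference of 13.2 points (SE 3.605, adjusted p = 0.115 by limma) was the one with the smallest adjusted p among the listed genes, and did not pass the threshold.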

How the data were processed

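ATAC-seq peak summits of 17 kidney libraries were analysed. Per the labels and the study's methods, the authors ran the ENCODE pipeline, aligned reads to mm10 with Bowtie2, removed duplicates and blacklisted regions, shifted read ends for Tn5 and called peaks with MACS2 per library. The deposited values are −log10 scores per summit (whether of a p-value or a q-value is not given in the sources used here). How reads mapping to several places were treated is not given either. The files hold no reads, so depth is unknown and a read-based differential test could not be run.

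The 29702 highest scored summits per library were extended by 250 bp, merged, and annotated with GENCODE M21 on GRCm38. Python 3.11.15, numpy 2.4.6, pandas 2.3.3, scipy 1.17.1, pysam 0.24.0, BLASTN 2.17.0 (E-value at most 1e-10), R 4.3.3 and limma 3.58.1 were used. limma was fitted to rank percentiles of all 7866 constitutive regions in 1 model of 3 groups with a mean-variance trend, and tested on simulated data. The 780 members, the gene lists and the sequence classes were chosen with earlier results of these data known. Regions named are, per comparison, up to 8 called members per direction by p, or the first 3 per direction where none was called, the 10 strongest, the 3 weakest, those next to the 1 kb threshold and, per gene list, the nearest member. Others were named after their values were seen. p-values measure the spread between mice as labelled. Alternatives covered the scale, the length of the list, the distance, the score minimum, copy number, the exact permutation test and leaving out each mouse. Similar copies of single-copy windows were counted with BLASTN (word size 16), a step chosen after seeing the data. Some genes and sequences are not reported here.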

Additional observations from a re-analysis of the deposited data

Results flagged for a closer look

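Of 51 group values examined, 10 had a mouse far from the other mice of its group by Dixon's criterion, which chance alone marks in about 1 of 20 groups. The median percentile over all members was 74.8822 in Case 3 and 78.5789 in Dapa 8, both the lowest of their groups. Over single-copy members it was 67.1419 in Case 3 and 76.1009 in Dapa 8. Both mice also had the most leukocyte promoter summits (8 and 4 of 25 genes), and the part of cell composition was not tested.

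Single members with such a mouse were the telomere array near Tusc1 (chr4:93844159-93844737), at 98.9092 in Case 6, the repeat near H60c (chr10:3116098-3116974), at 95.7158 in Case 5, and the repeat near Cdh6 (chr15:14524120-14524808), at 78.8196 in Case 5. Near Vmn1r238, chr18:3009787-3011158 was at 80.407 in Ctrl 4, above the other Ctrl mice, and chr18:3008469-3009086 was at 92.6924 in Dapa 8, below the other Dapa mice. The member near Snrpe (chr1:133594446-133595640) was at 97.3722 in Case 3.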

How the results depend on the processing

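Main counts were 22 members called in Case against Ctrl, 15 in Dapa against Ctrl and 0 in Dapa against Case. With the logit of the percentile they were 67 (56 higher) and 29 (27 higher), with the log2 score centred on the library median 162 (151 higher) and 67 (64 higher), without the mean-variance trend 9 and 3, with the percentile within the complete list 10 and 7, with complete lists 10 and 2, with scores of at least 5, 11 and 4, and with multi-copy regions left out or with the exact permutation test 0 and 0. Ranked among constitutive regions only, Case against Ctrl gave 42 (39 higher), and with the mean over a mouse's summits 14. Without Case 3 and Dapa 8, an alternative chosen after seeing the data, it gave 7 and Dapa against Ctrl 10. Leaving out each mouse gave 9 to 53 in Case against Ctrl, 0 to 41 in Dapa against Ctrl and 0 in Dapa against Case, which was 0 under every alternative run. The cause of these shifts was not tested. Except for the main counts, the share of all constitutive regions called at the same setting is not given here. The only named difference to reverse was that of chr8:55362822-55364552 in Case against Ctrl, at −0.2073 with the mean over summits.

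The labels give Ctrl and Case the same replicate numbers 1 to 5, but deviations of same-numbered mice did not correlate (−0.0618 to 0.0354). No effect shared by a number was seen in the rank percentiles. This check cannot decide whether the numbers denote pairs, and the main fit treated the mice as unpaired. With the replicate block, 0 members were called in Case against Ctrl, with 164 at an unadjusted p under 0.05. The share over all constitutive regions under this fit is not given here.

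The number of members was 344 with the upper 14851 summits of each list and 488 with scores of at least 5, and 783 to 1034 without 1 mouse. Ranked among constitutive regions only, the member medians were 37.42 in Ctrl, 46.06 in Case and 46.73 in Dapa, and with complete lists 86.47 in Ctrl and 87.29 in Dapa. They ran from 79.35 to 79.9, 81.88 to 83.9 and 82.51 to 83.74 when a mouse was left out. With windows of 100 bp, motif shares were 1.667% for CTCF, 6.538% for AP-1, 9.872% for the nuclear receptor letters AGGTCA, 0.7692% for FOX and RUNX, 7.692% for TEAD, 0.2564% for NRF1, 3.846% for SP/KLF, 3.205% for CEBP and the E-box, 1.538% for HRE, 0.5128% for GATA, 0 for MEF2 and 3.077% for p53. With 300 bp they were 13.72% for AP-1, 6.154% for HNF1, 21.92% for AGGTCA, 20.39% for TEAD, 9.231% for SP/KLF, 11.15% for CEBP, 2.179% for GATA and 8.718% for p53. Depth is unknown, which limits what a missing or weak summit can show.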
